A study of Xenopus tropicalis with 9 samples.

Results

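The genes of mitochondrial oxidative phosphorylation were followed through 9 RNA-seq libraries of whole *Xenopus tropicalis* embryos at neurula stage 14. Members were chosen by name alone, as rows whose gene name starts with nduf, uqcr, sdha, sdhb, sdhc, sdhd or atp5, or with cox and a digit between 4 and 8, together with *cyc1*. The rule found 92 of the 23633 rows of the table, and 89 of these reached a mean of 1.5 TPM in at least 1 condition. By name, 35 rows are subunits of complex I, 4 of complex II, 8 of complex III, 15 of complex IV and 16 of complex V. The other 14 rows are 7 assembly factors of complex I, 4 assembly factors of complex II, the complex V inhibitor *atp5if1*, and *atp5s* and *atp5sl*, which were kept apart. *ndufa4* was counted with complex IV, where its protein resides.

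The oxidative phosphorylation system lies in the inner mitochondrial membrane. Complexes I and II pass electrons taken from NADH and succinate to ubiquinone, complex III passes them on to cytochrome c, and complex IV to oxygen. Complexes I, III and IV pump protons as they do so, and complex V, the ATP synthase, makes ATP as the protons flow back. Most subunits are encoded in the nucleus and imported, while a small group in the catalytic cores is encoded by mitochondrial DNA. Early frog embryos inherit their mitochondria from the egg. Genes of mitochondrial DNA were not analysed here.

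Cic knockdown embryos had received mRNA for the forward and the reverse Cic-TALEN, 1 ng of each, a nuclease pair aimed at the DNA binding domain of Cic, a transcriptional repressor. Fgf4 embryos had received 5 pg of the plasmid Cska-Fgf4, and controls water. Every condition has 3 replicates of the Nigerian strain, grown at 23 °C. TALEN targeting in injected embryos is mosaic, so that cells with different *cic* alleles share a library. The level of *cic* does not check the knockdown, because the nuclease alters sequence, and *cic* was 14.7, 13.8 and 11.8 TPM in Cic knockdown embryos, against 14.7, 14.0 and 13.4 TPM in controls. *fgf4* was 1692, 168 and 95.4 TPM in Fgf4 embryos, against 3.23, 4.07 and 0.953 TPM in controls. The library sums ranged between 871757 and 1162165, with the 3 libraries of replicate 3 the highest. The number of reads behind each value is unknown, because TPM keeps no read counts. Nothing in the labels says whether replicates came from separate clutches, and p-values here measure only the spread between these libraries. The labelled tissue, whole embryo, held markers of neural plate, epidermis, muscle, notochord, endoderm and ciliated cells, and no gene of those marker lists that the table holds was at 0 in all libraries.

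All complexes were well represented at stage 14, and the levels of subunits within a complex were far from equal. TPM is scaled to transcript length, so levels can be set side by side between genes. In controls the median subunit mean was 91.1 TPM for complex I, 34.1 for complex II, 246 for complex III, 376 for complex IV and 194 for complex V. The highest subunit was *uqcr11*, a small complex III subunit, at 1050.3 ± 90.6 TPM (SD, n = 3). *atp5mc3*, which encodes the c subunit of the proton-driven rotor ring, averaged 878 ± 229 TPM in controls (SD, n = 3). *cox7a2* of complex IV averaged 850.5 ± 353 TPM there (SD, n = 3). The 3 means differ by less than the SD of *atp5mc3*, so their order was not resolved. *uqcrfs1* of complex III, with values given further below, lay in the same range.

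By control mean, the lowest subunit rows of complexes I and II were *ndufs6* (12.9 TPM) and the membrane anchor *sdhc* (5.82 TPM). Those of complexes III and V were the core protein *uqcrc2* (49.9 TPM) and *atp5c1* (44.5 TPM). *atp5c1* is an older symbol of *atp5f1c*, and the rows of that gene together were 329, 375 and 303 TPM in controls. The low value is thus that of a row, not of the gene. In complex I the highest was *ndufb9*, at 257 TPM. In complex II the highest was *sdhb*, the iron-sulphur subunit, at 44.9 TPM. Both *cox6a2* and *cox7a1*, the heart and muscle isoforms in mammals, were at or near 0. *cox6a2* was listed at 0 in 8 libraries and at 0.302 TPM in the other, and *cox7a1* at 0 in 8 libraries and at 0.306 TPM in the other. Their counterparts in other tissues were abundant, with *cox6a1* at 289 ± 59.2 TPM in controls (SD, n = 3). The third row below the filter was *ndufaf2*, an assembly factor of complex I, at 0 to 2.61 TPM. The median of the 14 assembly factors, inhibitor and other rows was 9.03 TPM in controls.

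Summed over all 78 subunit rows, the libraries formed a high and a low set that followed the replicate number. The sum was 12467, 13185 and 21863 TPM in Cic knockdown embryos, 14062, 15007 and 22188 TPM in Fgf4 embryos and 13430, 14636 and 22945 TPM in controls, for replicates 1, 2 and 3 in turn. The 3 libraries of replicate 3 are the 3 highest. In whole embryos fewer cells of a type and less RNA per cell cannot be told apart. By condition the sum averaged 15838 ± 5229.8 TPM in Cic knockdown embryos, 17086 ± 4444 TPM in Fgf4 embryos and 17004 ± 5180.5 TPM in controls (SD, n = 3 each). These SDs hold mostly the distance between replicate numbers. Within each replicate number the sum was lower in Cic knockdown embryos than in controls. As a share of its own library, the sum was 1.43%, 1.47% and 2% in Cic knockdown embryos, 1.42%, 1.51% and 1.96% in Fgf4 embryos and 1.46%, 1.5% and 1.97% in controls, so the split by replicate number remains when each library is set to the same total, while the share in replicate 3 is not lower in Cic knockdown than in controls. The plot of summed levels gives the same values for each complex, with complex II below the others by over an order of magnitude.

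**Figure D1:**
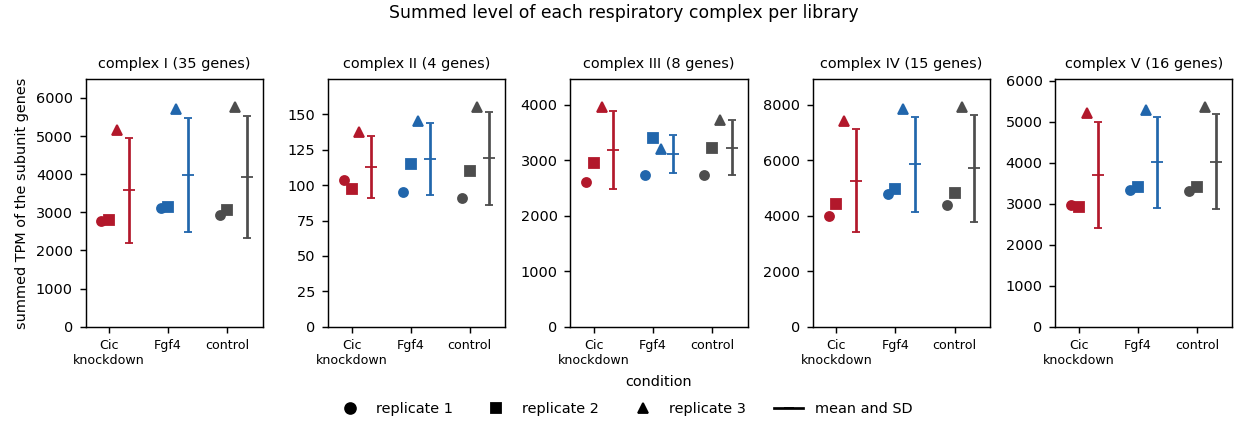
Summed TPM of the subunit genes of each respiratory complex (vertical axes, linear and starting at 0, scale differs between panels) in Cic knockdown, Fgf4 and control embryos, with 1 point per library, the marker shape for the replicate number, and the mean with SD of the 3 libraries beside them. In complexes I, II, IV and V the triangle of replicate 3 stands above replicates 1 and 2 in every condition, while in complex III the Fgf4 library of replicate 3, at 3209.9 TPM, lies below that of replicate 2, at 3391 TPM.

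The comparison of Cic knockdown with control embryos asked which transcripts differ when Cic function is reduced. No oxidative phosphorylation gene changed by the limits of the study's methods, which are an unadjusted p no higher than 0.01 and a fold of 1.75 or more, or of 0.571 or less. With limma on log2(TPM + 0.5), 0 of 89 members were called, against 4.74% of the 13598 genes tested. At an unadjusted p under 0.05 without a limit on fold change, 7 members (7.87%) were lower in Cic knockdown embryos, against 6.9% of all genes, and 1 (1.12%) was higher, against 10.3%. No gene of the table reached an adjusted p of 0.05 in this comparison. Without replicate 2 of Cic knockdown 276 genes did, and without replicate 2 of Fgf4 168 genes, with 0 members in either fit. Log2 changes of the members were also small, as *atp5s* alone lay past the fold limit, which is 1.12% of members against 12.5% of all genes. The median standard error was 0.151 for members and 0.231 for all genes tested, so the members were measured with less spread than most genes.

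The subunits nevertheless lay slightly below their control level in most cases. The median log2 change of the 76 subunits tested was -0.15, a fold of 0.903, against -0.022 for all genes. It was -0.091, -0.17 and -0.11 in the 3 replicate pairs. In all, 56 of 76 subunits had a log2 change below 0, against 52.4% of all genes, and 33 (43.4%) were lower in each of the 3 pairs, against 25.3%. The size depends on the scaling of the libraries, which moved the subunit median between -0.053 and -0.21. Relative to the median of all genes it was -0.13 as deposited, -0.12 with each library set to the same sum, -0.13 with median-of-ratios scaling and -0.031 with quantile normalization. Without the libraries of replicate 3 the subunit median itself was -0.086, against -0.15 with all libraries. Other gene lists, described below, had Cic knockdown medians of -0.20 for biogenesis regulators, -0.17 for carriers and -0.13 for glycolysis. Mitochondrial ribosome and import gave -0.12, assembly factors outside the rule -0.055 and the tricarboxylic acid cycle 0.062. A median of this size was thus not particular to the subunits.

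By complex, the median log2 change in Cic knockdown embryos was -0.16 for complex I, 0.086 for complex II, -0.067 for complex III, -0.032 for complex IV and -0.17 for complex V. Those of complexes I and V stayed below 0 under each scaling and without each library, at -0.064 and -0.073 with each library set to the same sum and -0.088 and -0.087 with quantile normalization. Complex V was -0.11 when rows of the same gene were summed. That of complex I moved to -0.10 without replicate 3 of Cic knockdown, and that of complex V to -0.10 without its replicate 1. Complex II moved to -0.071 without replicate 3 of Cic knockdown, complex III to 0.030 without its replicate 2, and complex IV to 0.063 with each library set to the same sum, so no direction is given for these 3. Each of the 3 has members on both sides of 0, as the plot of treatment changes shows.

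**Figure D2:**
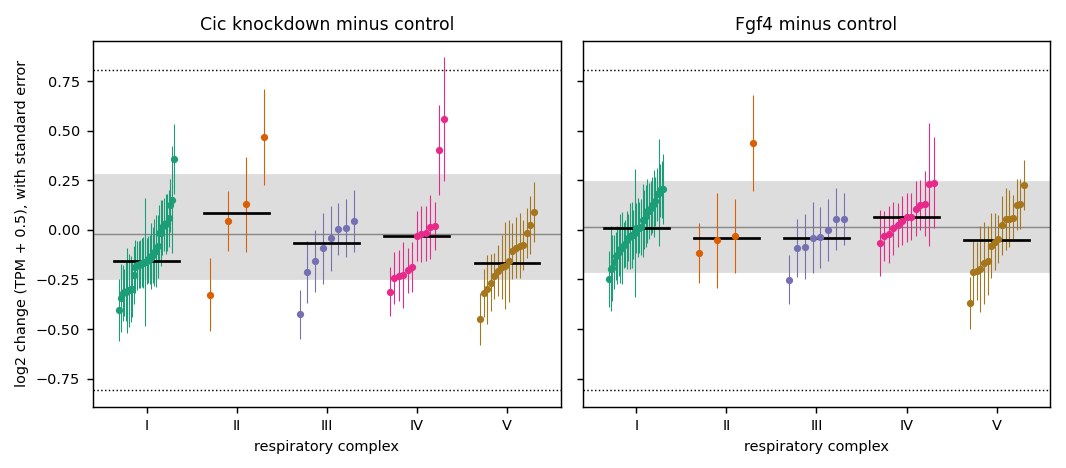
Log2 change of each subunit gene (points, with the standard error of the limma fit), by respiratory complex, for Cic knockdown minus control on the left and Fgf4 minus control on the right. The thick bars are the medians of each complex, the grey band and line the interquartile range and median of all genes tested, and the dotted lines the fold limits of 1.75 and 0.571, which no subunit reached in either comparison.

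In complex V, *atp5f1a*, the alpha subunit of the catalytic head, had the smallest p of all members. It was 207, 209 and 242 TPM in Cic knockdown embryos, against 308, 278 and 312 TPM in controls. The groups do not overlap, with every Cic knockdown library below every control. Of 89 members only *atp5f1a* had this order, a smaller share than the 5.18% of all genes. The log2 change was -0.45 (SE 0.13, adjusted p = 0.169), at an unadjusted p of 0.00982, and its fold of 0.732 stayed within the fold limit. *atp5f1b*, the catalytic beta subunit, was 426, 473 and 626 TPM in Cic knockdown embryos, against 483, 547 and 565 TPM in controls, and these ranges overlap. *atp5f1d*, the delta subunit of the central stalk, was 148, 116 and 269 TPM in Cic knockdown embryos, against 185, 151 and 318 TPM in controls, with a log2 change of -0.32 (SE 0.12, adjusted p = 0.254). Each pair of the same replicate number had the lower value of *atp5f1d* in Cic knockdown embryos, but the groups overlap because replicate 3 is high in both.

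In complex III, *uqcrc1*, a core protein of the matrix side, was 87.2, 94.9 and 169 TPM in Cic knockdown embryos, against 121, 125 and 226 TPM in controls. It was lower in Cic knockdown embryos in each pair, with a log2 change of -0.43 (SE 0.12, adjusted p = 0.171). Cytochrome c1, encoded by *cyc1*, was 150.3, 157 and 272 TPM in Cic knockdown embryos, against 160.0, 215 and 290.1 TPM in controls, and its log2 change was -0.21 (SE 0.16, adjusted p = 0.51). The Rieske iron-sulphur protein gene *uqcrfs1* was 811, 1074 and 1149 TPM in Cic knockdown embryos, against 809.8, 1157 and 969 TPM in controls. Replicate 1 was the lowest *uqcrfs1* value in both conditions, and the groups overlap.

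In complex I the smallest p-values belonged to a pair of accessory subunits of the membrane arm. *ndufb6* was 104, 106 and 203 TPM in Cic knockdown embryos, against 140.0, 129.9 and 238 TPM in controls, with a log2 change of -0.31 (SE 0.12, adjusted p = 0.25). *ndufc2* was 60.5, 66.8 and 174 TPM in Cic knockdown embryos, against 74.7, 84.2 and 258 TPM in controls, with a log2 change of -0.40 (SE 0.16, adjusted p = 0.258). Both were lower in Cic knockdown embryos in all 3 pairs, and neither passed the limits. The 7 core subunits encoded in the nucleus, which carry the flavin and the iron-sulphur clusters, had log2 changes between -0.30 for *ndufs1* and 0.012 for *ndufs7*, with adjusted p of at least 0.342. Their median, -0.17, was close to the -0.15 of the 28 accessory subunits.

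Complexes II and IV showed the same pattern of small and mixed values. The iron-sulphur subunit *sdhb* had a log2 change of -0.33 (SE 0.19, adjusted p = 0.401) and the anchor *sdhc* one of 0.47 (SE 0.24, adjusted p = 0.362). *sdhc* was 8.37, 7.49 and 7.95 TPM in Cic knockdown embryos, against 4.40, 4.69 and 8.37 TPM in controls, so that replicates 1 and 2 differ between the conditions and replicate 3 does not. *sdha*, the flavoprotein, and *sdhd*, the other anchor, had log2 changes of 0.13 (SE 0.24, adjusted p = 0.81) and 0.044 (SE 0.15, adjusted p = 0.902). In complex IV, *cox7b* was 396, 429.7 and 799 TPM in Cic knockdown embryos, against 451, 537 and 1075 TPM in controls, with a log2 change of -0.31 (SE 0.12, adjusted p = 0.265). *cox5a* had a log2 change of -0.24 (SE 0.13, adjusted p = 0.388) and *cox4i1* one of -0.20 (SE 0.11, adjusted p = 0.39). All 3 of these complex IV genes were lower in Cic knockdown embryos in every pair.

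The member with the largest fold was not a subunit. *atp5s*, an older symbol of *dmac2l* in the reference gene table, was 3.43, 3.87 and 2.55 TPM in Cic knockdown embryos, against 1.68, 2.00 and 0.755 TPM in controls. Every Cic knockdown library lay above every control, at levels close to the filter. No other of the 89 members had this order, which holds for 9.16% of all genes. Its log2 change was 0.98 (SE 0.36, adjusted p = 0.239), past the fold limit but not the limit on p. It was called when only the 6 libraries of the comparison were fitted (adjusted p = 0.105). Leaving out replicate 2 of Cic knockdown called a different member, *cox5b.2*, with a log2 change of 0.99 (adjusted p = 0.0665), against 0.56 (adjusted p = 0.394) with all libraries. Leaving out both other replicate 2 libraries as well gave *cox5b.2* 0.90 (adjusted p = 0.162).

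The comparison of Fgf4 overexpressing with control embryos asked what raised Fgf signalling alters. The oxidative phosphorylation genes were centred on their control level. None of 89 members was called, against 2.56% of the 13437 genes tested, and no gene of the table reached an adjusted p of 0.05, although 390 genes and 0 members did without replicate 3 of Fgf4. At an unadjusted p under 0.05, 1 member (1.12%) was lower, against 7.08% of all genes, and 0 were higher, against 6.19%. The median log2 change of the 76 subunits was 0.0035, against 0.013 for all genes, and 38 subunits lay on each side of 0, with 51.7% of all genes above it. By complex the medians were 0.010 for complex I, -0.041 for complex II, -0.038 for complex III, 0.063 for complex IV and -0.051 for complex V. Those of complexes II, III and V were above 0 without replicate 3 of Fgf4, at 0.11, 0.096 and 0.043, and that of complex I was -0.024 with each library set to the same sum.

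The 1 member at an unadjusted p under 0.05 was again *atp5f1a*. It was 252, 189 and 261 TPM in Fgf4 embryos, against 308, 278 and 312 TPM in controls. The groups do not overlap, with every Fgf4 library below every control. Among 89 members *atp5f1a* alone had this order, a smaller share than the 3.25% of all genes. The log2 change was -0.37 (SE 0.13, adjusted p = 0.331). The same control libraries enter this comparison and that with Cic knockdown. Of the other complex V genes, *atp5f1b* had a log2 change of -0.080 (SE 0.16, adjusted p = 0.867), *atp5f1c*, the gamma subunit that turns with the rotor, one of 0.022 (SE 0.15, adjusted p = 0.96), and *atp5mg* one of 0.23 (SE 0.12, adjusted p = 0.474).

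In complex I the smallest p-values were those of *ndufb8*, with a log2 change of -0.25 (SE 0.14, adjusted p = 0.486), and *ndufb3*, with 0.20 (SE 0.13, adjusted p = 0.549). In complex II, *sdhc* was 6.27, 9.07 and 8.21 TPM in Fgf4 embryos, against 4.40, 4.69 and 8.37 TPM in controls, and its log2 change was 0.44 (SE 0.24, adjusted p = 0.472), while that of *sdhd* was -0.12 (SE 0.15, adjusted p = 0.781). Replicate 3 of *sdhc* differed little between the conditions here as well. In complex III, *uqcrc1* had a log2 change of -0.25 (SE 0.12, adjusted p = 0.431). *uqcr11*, the subunit with the highest control mean, had one of -0.090 (SE 0.15, adjusted p = 0.83), which was 0.039 without replicate 3 of Fgf4. In complex IV, *cox4i2* had a log2 change of 0.24 (SE 0.23, adjusted p = 0.69) and *cox6a1* one of 0.12 (SE 0.13, adjusted p = 0.708). *atp5s* was 1.61, 6.55 and 2.01 TPM in Fgf4 embryos, against 1.68, 2.00 and 0.755 TPM in controls, with a log2 change of 0.81 (SE 0.36, adjusted p = 0.387). Replicate 2 stands far above the other Fgf4 libraries for *atp5s*, and without replicate 1 of Fgf4 the gene was called (log2 change 1.21, adjusted p = 0.55).

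Set directly against each other, Cic knockdown and Fgf4 embryos gave no call in these genes. None of 89 members was called, against 2.13% of 13607 genes, and no gene reached an adjusted p of 0.05. At an unadjusted p under 0.05, 6 (6.74%) were lower in Cic knockdown, against 5.45% of all genes, and 0 were higher, against 8.09%. The 6 are *ndufb4*, *ndufb9*, *ndufc2*, *cox7b*, *atp5pf* and *atp5po*. *ndufc2* was 60.5, 66.8 and 174 TPM in Cic knockdown embryos, against 80.1, 74.6 and 314 TPM in Fgf4 embryos, with a log2 difference of -0.47 (SE 0.16, adjusted p = 0.332). Most of that distance is in replicate 3. *cox7b* had a log2 difference of -0.38 (SE 0.12, adjusted p = 0.332). The median difference of the subunits was -0.12, against -0.019 for all genes. With each library set to the same sum it was 0.0082, a scaling that moves the median of all genes to 0.11, so that the subunits lay at -0.10 relative to that median, as they did with the deposited values and with median-of-ratios scaling. With quantile normalization that distance was only -0.014. Among the lists described below, the median difference was -0.34 for biogenesis regulators, -0.34 for glycolysis and -0.12 for mitochondrial ribosome and import. It was -0.049 for carriers, -0.026 for assembly factors outside the rule and 0.020 for the tricarboxylic acid cycle.

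Far larger differences lay between replicate numbers. Libraries of replicate 3, from all 3 conditions, were compared with those of replicates 1 and 2 in the same limma fit. This sets 1 replicate number against 2. All p-values between replicate numbers rest on the scatter of conditions within a number. They do not measure how much replicate numbers vary. Of 89 members, 42 were called higher in replicate 3, against 14.1% of the 13833 genes tested, and 2 lower, against 12.1%. At an adjusted p of at most 0.05, 59 members were higher and 4 lower, against 23.5% and 21.3% of all genes. At an unadjusted p under 0.05, 68 members (76.4%) differed in either direction, against 53.5%. In 57 members (64%) all 3 libraries of replicate 3 lay above the other 6, against 18.3% of all genes, and in 4 (4.49%) below, against 17.7%. The replicate number accounted for a median of 86.1% of the variance of log2(TPM + 0.5) among the 9 libraries in members, against 57.4% in all genes, and the condition for 4.11%, against 16.3%. Replicate 3 was singled out with these results known. An F test that singles out no replicate called 58 members (65.2%) at an adjusted p of at most 0.05, against 41.9% of all genes, while the same test over conditions called 0 of 13833 genes.

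**Figure D3:**
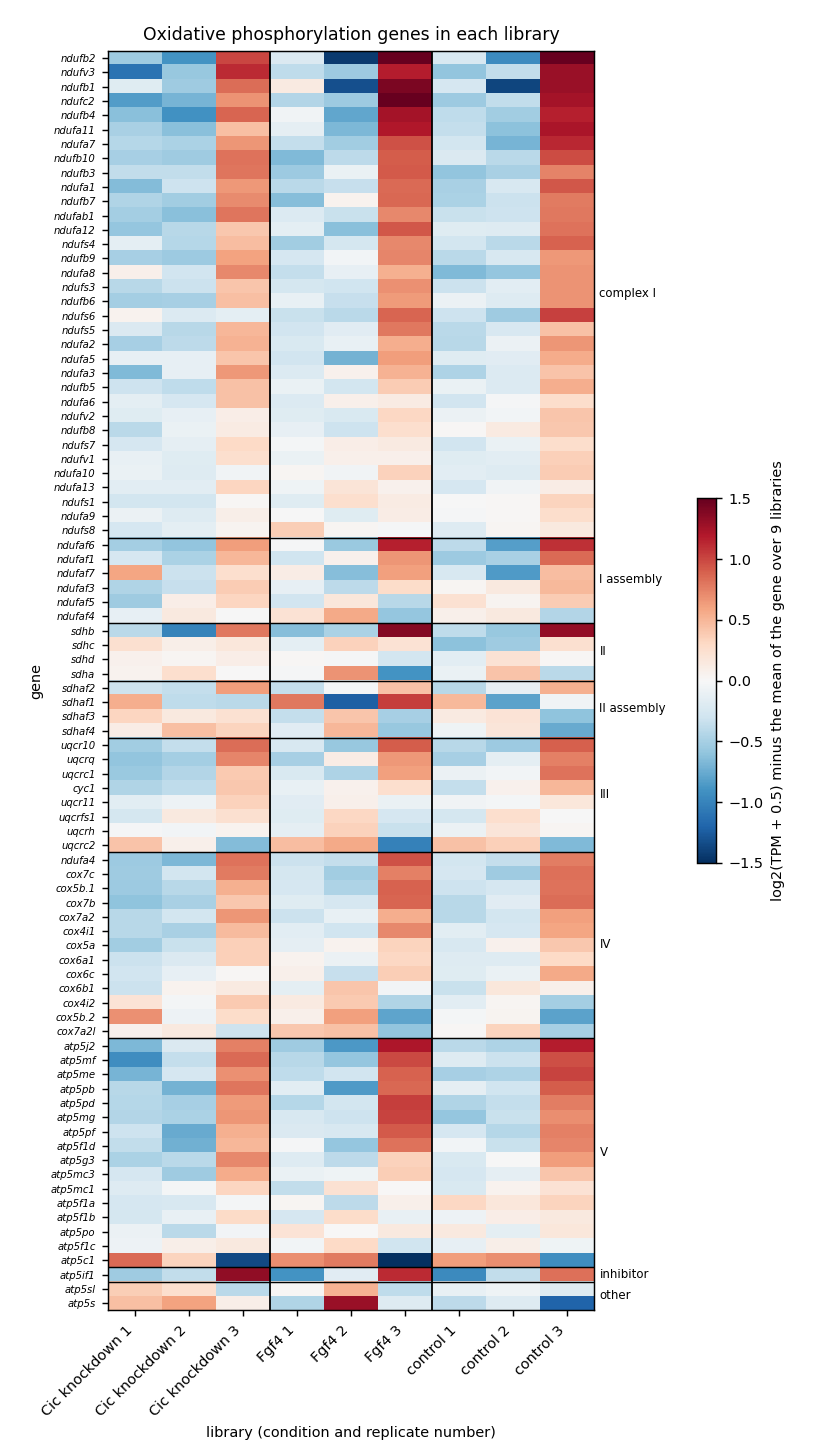
Log2(TPM + 0.5) of 88 of the members that passed the filter (rows, grouped by complex and ordered within it by the change in replicate 3), minus the mean of each gene over the 9 libraries (columns, by condition and replicate number). Red marks values above that mean and blue below, and colours end at 1.5 in either direction. In most rows the columns of replicate 3 are red in all 3 conditions, and *uqcrc2* and *atp5c1* are blue there.

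The median log2 difference of the 76 subunits was 0.86, a fold of 1.82, against 0.029 for all genes. It was 0.83 within Cic knockdown, 0.77 within Fgf4 and 0.80 within control libraries. Replicates 1 and 2 differed from each other by a median of only 0.026, with 42 subunits higher in replicate 2 and 34 lower. Setting each library to the same sum lowered the subunit median to 0.60 and that of all genes to -0.22, so that the distance between them, 0.82, hardly moved from the 0.83 of the deposited values. With that scaling, 49 members were higher and 13 lower at an adjusted p of at most 0.05, against 15.1% and 31.8% of all genes. Of the 44 members called, 30 kept the call with that scaling (*uqcrc1*, *atp5f1d* and *ndufaf1* are among the 14 that did not), 43 with median-of-ratios scaling and 37 with quantile normalization. Outside those 44, *cox7a2l* and *sdha* gained a call with each library set to the same sum, and *sdhaf2* with quantile normalization. Leaving out any 1 library left between 52 and 65 members past the limit on adjusted p, against 63 with all libraries.

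The difference was unequal between and within complexes. The median log2 difference was 0.88 for complex I, 0.12 for complex II, 0.39 for complex III, 0.55 for complex IV and 0.94 for complex V. Complex II turned to -0.14 with each library set to the same sum and to -0.024 without replicate 3 of the controls. The others stayed above 0 under every scaling and without each library, but complex III was 0.098 with quantile normalization, and complex IV was 0.29 with each library set to the same sum and 0.31 with quantile normalization. In complex I all 35 subunits had a log2 difference above 0 with the deposited values, the lowest at 0.089, as did 51.5% of all genes. Of these 35, 29 passed an adjusted p of 0.05, of which 25 are accessory and 4 core subunits. Over all complexes, 10 subunits lay below 0 with the deposited values and 19 with each library set to the same sum. The 28 accessory subunits had a median of 1.01, the 7 core subunits one of 0.35. Between these lists no test was made, and with the same sum the core median was 0.091.

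**Figure D4:**
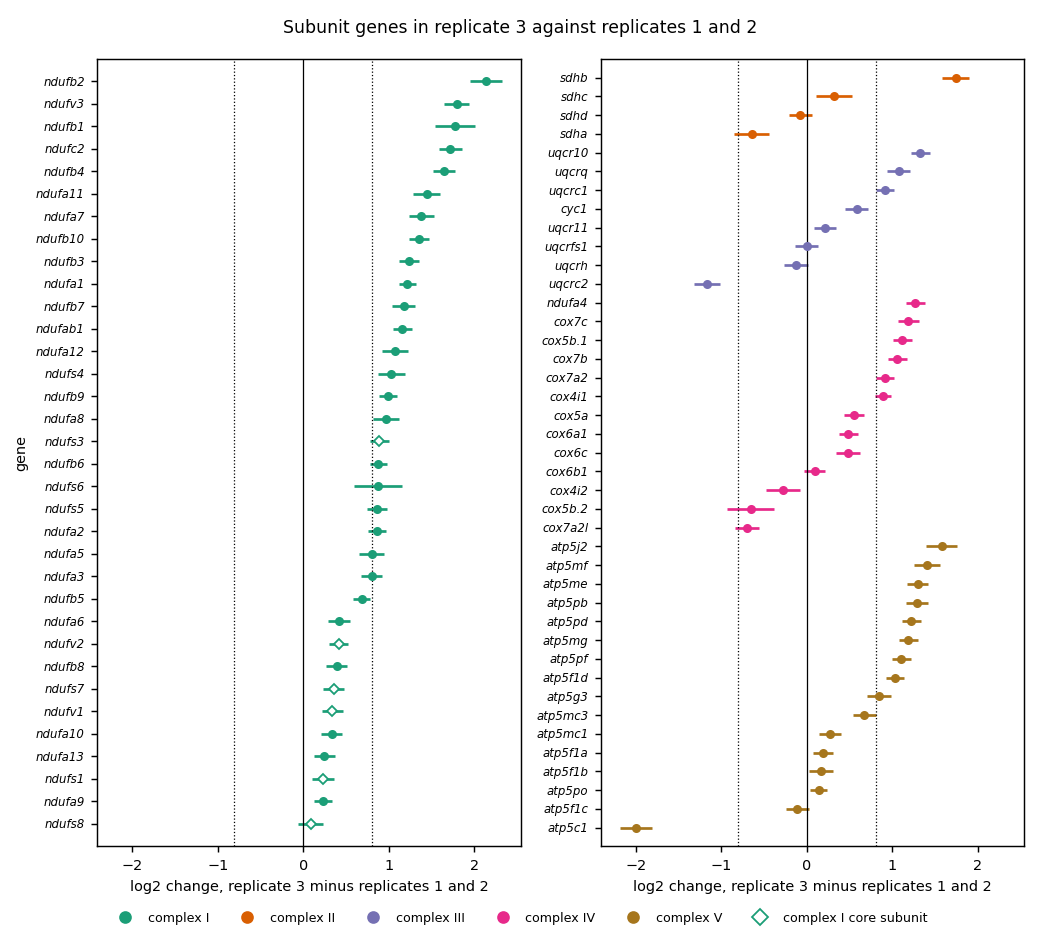
Log2 difference of 75 subunit genes between replicate 3 and replicates 1 and 2 (horizontal axis, points with the standard error of the limma fit), complex I on the left and complexes II to V on the right. Open diamonds are 6 core subunits of complex I, of which those plotted other than *ndufs3* lie at or below 0.41 (*ndufv2*), and dotted lines mark the fold limits of 1.75 and 0.571.

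Accessory subunits of complex I held most of the smallest p-values. *ndufb4*, of the membrane arm, was 93.1, 122 and 114 TPM in replicate 3, against 26.8 to 48.9 TPM (median 33.9) in replicates 1 and 2. *ndufc2* was 174, 314 and 258 TPM in replicate 3, against 60.5 to 84.2 TPM (median 74.6) in replicates 1 and 2. *ndufv3*, an accessory subunit of the NADH-binding module, was 92.9, 97.1 and 105 TPM in replicate 3, against 19.5 to 32.8 TPM (median 28.8) in replicates 1 and 2. In each of these genes the 3 libraries of replicate 3 stand well apart from all others. Their log2 differences were 1.64 (adjusted p = 0.00029), 1.72 (adjusted p = 0.00029) and 1.79 (adjusted p = 0.0003). *ndufb2* had the largest log2 difference of all members, 2.13 (adjusted p = 0.00037), and was 103, 153 and 165 TPM in replicate 3, against 18.5 to 44.0 TPM (median 31.2) in replicates 1 and 2. The acyl carrier protein gene *ndufab1*, which also serves mitochondrial fatty acid synthesis, was 396, 376 and 395 TPM in replicate 3, against 147 to 198 TPM (median 180.5) in replicates 1 and 2.

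Among the core subunits of complex I, *ndufs3* was 93.2, 113 and 111 TPM in replicate 3, against 52.2 to 62.3 TPM (median 56.0) in replicates 1 and 2, and it was the only one of the 7 called. Its log2 difference was 0.89 (adjusted p = 0.000864), which was 0.63 with each library set to the same sum and then below the fold limit. *ndufv1*, which binds NADH, was 107, 94.3 and 115 TPM in replicate 3, against 78.7 to 94.2 TPM (median 81.4) in replicates 1 and 2, with a log2 difference of 0.34 (adjusted p = 0.0586). *ndufs8* was 156, 149.6 and 168 TPM in replicate 3, against 127 to 195 TPM (median 145) in replicates 1 and 2, and its groups overlap. Among other core subunits the log2 differences were 0.41 (adjusted p = 0.0175) for *ndufv2*, 0.35 (adjusted p = 0.0443) for *ndufs7* and 0.23 (adjusted p = 0.169) for *ndufs1*.

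Complex II was split within itself. *sdhb* was 59.3, 89.5 and 85.8 TPM in replicate 3, against 16.8 to 26.1 TPM (median 23.6) in replicates 1 and 2. The flavoprotein *sdha*, its partner in the matrix arm, was 24.8, 13.1 and 18.6 TPM in replicate 3, against 23.0 to 39.9 TPM (median 27.6) in replicates 1 and 2. This is the opposite direction, but the groups of *sdha* overlap. The log2 differences of *sdhb* and *sdha* were 1.74 (adjusted p = 0.00043) and -0.65 (adjusted p = 0.0389). *sdha* was not called with the deposited values, but it was with each library set to the same sum. *sdhc* and *sdhd* were near level, at 0.31 (adjusted p = 0.26) and -0.076 (adjusted p = 0.66).

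Complex III was divided as well. The small subunit gene *uqcr10* was 439.9, 463 and 459 TPM in replicate 3, against 166 to 207 TPM (median 177) in replicates 1 and 2, with a log2 difference of 1.33 (adjusted p = 0.000355). *uqcrc1* was 169, 198 and 226 TPM in replicate 3, against 87.2 to 125 TPM (median 102) in replicates 1 and 2, with a difference of 0.91 (adjusted p = 0.000839). Its partner core protein *uqcrc2* was 29.0, 22.4 and 28.8 TPM in replicate 3, against 48.4 to 68.2 TPM (median 62.1) in replicates 1 and 2, lower in replicate 3 by a log2 difference of -1.17 (adjusted p = 0.00126). Core proteins of the same subcomplex thus lay on opposite sides, with no overlap between the groups for either. *uqcrfs1* had a log2 difference of -0.0048 (adjusted p = 0.979), *uqcrh*, the hinge protein, one of -0.13 (adjusted p = 0.502), and *cyc1* one of 0.58 (adjusted p = 0.0118).

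In complex IV, *ndufa4* was 765, 847 and 742 TPM in replicate 3, against 272 to 360.1 TPM (median 341) in replicates 1 and 2, with a log2 difference of 1.27 (adjusted p = 0.000342). The other called subunits were *cox4i1*, *cox5b.1*, *cox7a2*, *cox7b* and *cox7c*, with log2 differences between 0.89 and 1.18. Of these *cox4i1*, *cox7a2* and *cox7b* lost the call with each library set to the same sum and with quantile normalization, where *cox4i1* gave 0.63 and 0.67 and *cox7a2* 0.65 and 0.48. *cox6b1* was 783, 695 and 754 TPM in replicate 3, against 564 to 948 TPM (median 689) in replicates 1 and 2, and its replicate 3 libraries fall among the others. *cox5a* had a log2 difference of 0.55 (adjusted p = 0.00758) and *cox6a1* one of 0.48 (adjusted p = 0.0104), both below the fold limit.

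In complex V several genes of the peripheral stalk and membrane sector were called, and neither *atp5f1a* nor *atp5f1b* of the catalytic head. *atp5pd*, of the peripheral stalk, was 170.3, 223 and 185 TPM in replicate 3, against 76.8 to 89.9 TPM (median 81.0) in replicates 1 and 2, with a log2 difference of 1.22 (adjusted p = 0.000393). *atp5mg*, of the membrane sector, was 495, 635 and 509 TPM in replicate 3, against 209.8 to 266 TPM (median 240.3) in replicates 1 and 2, with a difference of 1.19 (adjusted p = 0.000415). *atp5me*, *atp5mf*, *atp5pb* and *atp5pf* had log2 differences between 1.10 and 1.40, all called. Of the catalytic head, *atp5f1a* had a log2 difference of 0.19 (adjusted p = 0.209) and *atp5f1b* one of 0.16 (adjusted p = 0.376). The central stalk was split. *atp5f1d* was called higher, at 1.02 (adjusted p = 0.000555), and *atp5f1c* had -0.11 (adjusted p = 0.515). The older row of *atp5f1c*, *atp5c1*, was called lower, at -1.99 (adjusted p = 0.000444). *atp5po*, which links the head to the peripheral stalk, had 0.14 (adjusted p = 0.289). The sectors were grouped after their values were seen, and the difference between them was not tested.

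The inhibitor gene *atp5if1*, whose protein blocks ATP hydrolysis by complex V, was 253, 219 and 178 TPM in replicate 3, against 51.4 to 89.3 TPM (median 73.2) in replicates 1 and 2. Its log2 difference was 1.64 (adjusted p = 0.0003), among the largest of all members. Of the other rows that are not subunits, 2 were called, *ndufaf1* and *ndufaf6*, with log2 differences of 1.00 (adjusted p = 0.00374) and 1.44 (adjusted p = 0.00101). Both are assembly factors of complex I.

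Related genes did not move together across the replicate numbers. *cox4i2*, which in mammals is the isoform of subunit 4 favoured at low oxygen, made up 8.87% to 17.1% of the summed *cox4i1* and *cox4i2* TPM in replicate 3, against 17.9% to 26.2% in replicates 1 and 2. *cox5b.2* made up 2.19% to 5.78% of the summed *cox5b* copies in replicate 3, against 8.09% to 14.6%. *cox7a2l*, which in mouse takes part in assembling complexes III and IV into a supercomplex, stood at 2.78% to 3.11% of its sum with *cox7a2* in replicate 3, against 7.8% to 9.48%. None of these 3 ranges overlaps between the sets of libraries. *cox7a2l* was itself lower in replicate 3, by a log2 difference of -0.70 (adjusted p = 0.00639), and *cox4i2* and *cox5b.2* gave -0.28 (adjusted p = 0.279) and -0.66 (adjusted p = 0.0829). With each library set to the same sum *cox7a2l* gave -0.96 and was called, as it was without replicate 3 of Cic knockdown, at -0.84. Without replicate 2 of Cic knockdown *cox5b.2* gave -0.87 and was called. Similar copies can share reads, and how the counting divided them was not examined.

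In 3 cases the table holds a row under an older symbol and a row under the current symbol of the same NCBI gene, so that 92 rows stand for 89 genes. *atp5c1* is an older symbol of *atp5f1c*. Its row was 13.9, 10.8 and 18.7 TPM in replicate 3, against 45.9 to 65.7 TPM (median 59.0) in replicates 1 and 2, the lowest fold of all members in replicate 3, at -1.99 (adjusted p = 0.000444). The *atp5f1c* row was 331, 242 and 284 TPM in replicate 3, against 273 to 366 TPM (median 303) in replicates 1 and 2, with overlapping groups. *atp5c1* made up 4.03% to 6.16% of the sum of both rows in replicate 3, against 12.6% to 18.9% in replicates 1 and 2. In the other pairs both rows kept their proportions, with *atp5g3* at 10.6% to 12.3% of its sum with *atp5mc3* in replicate 3, against 8.8% to 11.7%, and *atp5j2* at 31.2% to 36.3% of its sum with *atp5mf*, against 28.5% to 36.6%. The rows are reported apart, and their split between symbols is uncertain. With the rows of each gene summed, 41 members were called in either direction between replicate numbers, instead of 44. At an adjusted p of at most 0.05 there were then 60 members, instead of 63, and 6198 genes of the table, instead of 6201.

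**Figure D5:**
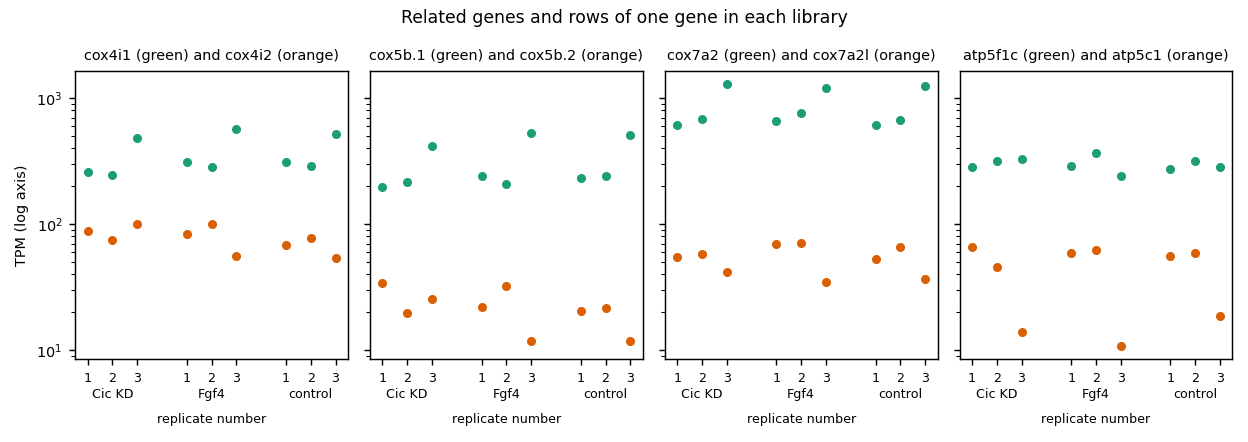
TPM (vertical log axis) of 4 pairs of rows in each library, by condition and replicate number, with *cox4i1*, *cox5b.1*, *cox7a2* and *atp5f1c* in green and *cox4i2*, *cox5b.2*, *cox7a2l* and *atp5c1* in orange. In the first 3 pairs green is higher in replicate 3 than in replicates 1 and 2 of every condition, and *atp5c1* is lower there, at 10.8 to 18.7 TPM against 45.9 to 65.7 TPM.

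Other mitochondrial gene lists held 0 or 1 called gene each with the injections, counts too small to set them apart from the share of all genes. Of 33 assembly factors outside the naming rule, 1 was called higher in Cic knockdown embryos and 0 lower, against 3.99% of all genes called higher. This was *cox19*, a copper-handling factor of complex IV assembly, at 15.4, 18.9 and 26.2 TPM in Cic knockdown embryos, against 4.84, 7.82 and 12.42 TPM in controls (log2 change 1.28, adjusted p = 0.0843). Every Cic knockdown library of *cox19* lay above every control, as for 9.16% of all genes. Of 18 genes of the tricarboxylic acid cycle and pyruvate dehydrogenase, 1 was called higher and 0 lower. Of 92 genes of the mitochondrial ribosome and import machinery, taken by their name prefixes, 1 was called higher and 0 lower. It was *mrps9* (adjusted p = 0.169), named after its value was seen. Of the remaining lists, 0 of 10 carrier and exchange genes, 0 of 16 regulators of biogenesis and mitochondrial DNA upkeep and 0 of 19 glycolysis genes were called. In Fgf4 embryos 0 genes of any of these lists were called, against 2.56% of all genes.

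Between replicate numbers the same lists were counted at an adjusted p of at most 0.05, where 23.5% of all genes were higher in replicate 3 and 21.3% lower, and no test compared the lists. Of 33 assembly factors, 13 were higher and 3 lower, with a median log2 difference of 0.45. Of the 92 ribosome and import genes, 45 were higher and 12 lower, with a median of 0.40, and within them the 72 genes of the mitochondrial ribosome gave 41 higher and 4 lower. Among the ribosome genes *mrpl27* was 155, 162 and 156 TPM in replicate 3 of Cic knockdown, Fgf4 and control, against 36.7 to 48.5 TPM in replicates 1 and 2. The tricarboxylic acid cycle gave 4 higher and 5 lower of 18 (median -0.15), with citrate synthase, *cs*, lower by a log2 difference of -0.84 (adjusted p = 0.00483). The regulators gave 3 higher and 6 lower of 16 (median -0.39), glycolysis 2 higher and 3 lower of 19 (median -0.12), and the carriers 3 higher and 1 lower of 10 (median -0.018). The mitochondrial single-strand binding protein gene *ssbp1* was among the higher, at 1.65 (adjusted p = 0.00025), and the methyltransferase gene *tfb1m* among the lower, at -1.41 (adjusted p = 0.000594).

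Markers of several tissues also moved with the replicate number. The summed level of 6 epidermal genes was 802 to 1668 TPM in replicate 3, against 249 to 1000 TPM in replicate 1 and 512 to 672 TPM in replicate 2, and 3 of the 6 were called higher, against 14.1% of all genes. The sum of 4 genes of ciliated cells and ionocytes was 199 to 330.2 TPM in replicate 3, against 24.3 to 149.5 TPM in replicate 1 and 64.7 to 109.9 TPM in replicate 2, and 1 of the 4 was called higher. Of 14 genes of eggs and germ line, 4 were called lower, against 12.1% of all genes, with sums of 221 to 499 TPM in replicate 3, against 281 to 571 TPM in replicate 1 and 373 to 592 TPM in replicate 2. With the injection, 9 of the same 14 genes were called higher in Cic knockdown embryos, against 3.99% of all genes. Their sums were 499 to 571 TPM, against 221 to 373 TPM in controls. The 5 neural plate genes summed to 254 to 395 TPM in Cic knockdown embryos, against 604 to 722 TPM in controls. Their sum in Fgf4 embryos was 367 to 489 TPM, also below every control. Of these 5, 2 were called lower in Cic knockdown and 0 in Fgf4 embryos. Of 3 blood and myeloid genes tested, 1 was called lower in Cic knockdown and 2 in Fgf4 embryos. The sum of the whole blood list was 64.8 to 777 TPM in Fgf4 embryos, against 56.3 to 165 TPM in controls. Of 7 endoderm genes, 1 was called higher in each, while their median log2 change was -0.30 in Cic knockdown and 0.083 in Fgf4 embryos. In Fgf4 embryos 1 of 6 epidermal genes was called lower. Of all genes, 4.74% were called in either direction in Cic knockdown and 2.56% in Fgf4 embryos. The part of these tissues in the differences above was not tested. Nothing in the labels says what else the replicate numbers stand for, so embryo batch, collection and library preparation cannot be told apart.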

How the data were processed

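Poly(A) RNA of whole embryos was sequenced on the Illumina platform, 3 libraries each of Cic knockdown, Fgf4 and control embryos. The authors quantified reads with Salmon against *X. tropicalis* genome version 9.1 and aggregated them by gene for Sleuth. The submitters' processing notes also name cutadapt, and versions are not given in the sources used here. The deposited signal of each gene and library is TPM, by the header of the authors' mean columns, times a factor per library that is not named, since sums differ between libraries. No read counts were recovered, so no counting error is given.

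The oxidative phosphorylation rows and all gene lists were chosen with earlier results of these data known. Subunits were assigned to complexes by name. Of 92 names, 87 matched a current symbol and 4 an older symbol of the reference gene table, and 1 matched none. No sequences or coordinates are given, because the assembly of that table is not the one the authors used.

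Values were taken as log2(TPM + 0.5). The 13833 genes with a mean of at least 1.5 TPM in at least 1 condition entered 1 linear model over all 9 libraries (limma 3.58.1, R 4.3.3), with terms for condition and replicate number. eBayes used a trended variance prior, with 3.31 prior and 4 residual degrees of freedom. Fold changes are on the scale of TPM + 0.5, which understates those of low genes. Tests are two-sided, with Benjamini-Hochberg adjustment over all genes tested in a comparison. A gene was called where its unadjusted p was 0.01 or less and its fold was 1.75 or more, or 0.571 or less. The study's methods model embryo batch without listing it, so the replicate number was taken as batch. Deviations from the condition means correlated at 0.38 to 0.791 over the 9 pairs of libraries with the same number, and at -0.729 to 0.337 over the 18 pairs with different numbers. The fit was tested on simulated data.

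Genes were named by a rule: in each complex the 2 subunits with the smallest p against control, the core and catalytic subunits, the highest and lowest control levels, isoform sets, rows that share an NCBI gene, the 10 subunits with the smallest p between replicate numbers, and the 2 smallest p of each list. Others were added after their values were seen. The values of 2 genes that the rule names are not reported here, and they stay in counts and medians. Alternatives were no replicate block, other pseudocounts, filters, scalings and call limits, a constant variance prior, a fit of the 6 libraries of a comparison, and leaving out libraries or replicate numbers. Summing rows of the same gene and the F test over replicate numbers were added after seeing the data.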

Additional observations from a re-analysis of the deposited data

How the results depend on the processing

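No oxidative phosphorylation gene reached an adjusted p of 0.05 in a treatment comparison under the alternatives of fit, pseudocount, filter, variance prior, scaling, summed rows and left-out libraries, while over all genes 275 did for Cic knockdown in a fit of its 6 libraries. Without the replicate block the genes called numbered 371 for Cic knockdown, 121 for Fgf4 and 143 for Cic knockdown against Fgf4, instead of 645, 344 and 290, and the block changed no call of a member. A filter of 5 TPM gave 428 genes for Cic knockdown and 186 for Cic knockdown against Fgf4, and a fit of 6 libraries gave 159 for the last of these and 1 member, *atp5s*, for Cic knockdown. At an adjusted p of at most 0.05 all 3 treatment comparisons had 0 genes, and at an unadjusted p under 0.05 they had 2335, 1784 and 1843 genes with 8, 1 and 6 members. For replicate 3, the 3625 genes called became 6201 at the adjusted limit, 7406 at the unadjusted one and 5794 by the F test, and the 44 members called became 68 at an unadjusted p under 0.05.

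Scaling to the same sum, median-of-ratios scaling and quantile normalization gave subunit medians of -0.053, -0.21 and -0.074 for Cic knockdown, 0.0082, -0.16 and -0.036 for Cic knockdown against Fgf4, and 0.60, 0.82 and 0.73 for replicate 3. Leaving out libraries gave 224 to 1170 genes for Cic knockdown, 86 to 1056 for Fgf4, 50 to 713 for Cic knockdown against Fgf4 and 2851 to 3771 for replicate 3. The members called then ranged over 0 to 1, 0 to 1, 0 to 0 and 44 to 48. The subunit medians ranged over -0.15 to -0.086, -0.030 to 0.056, -0.15 to -0.074 and 0.82 to 0.88. *uqcr11* in Fgf4 embryos turned to 0.039 without replicate 3 of Fgf4 (-0.20 to 0.039 over all such fits). The cause of these shifts was not tested. The reads behind each gene are unknown, so the precision rests on 3 libraries per condition.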

Other observations

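Outside the members, *etfa* and *mrps22* had every Cic knockdown library below every control, as for 5.18% of all genes. They were named by the rule that names the smallest p of each list. Other genes named in this way had the same order, such as *cox10* (log2 change -0.42, adjusted p = 0.254) and *polrmt* (-0.55, adjusted p = 0.237). Some had the opposite order, such as *cox19*. Genes with either order were not counted over the lists. *etfa*, which encodes a subunit of the electron transfer flavoprotein that feeds ubiquinone, was 54.7, 62.7 and 68.2 TPM in Cic knockdown embryos, against 89.2, 87.8 and 83.4 TPM in controls, with a log2 change of -0.49 (adjusted p = 0.144). It was 62.4, 61.8 and 66.0 TPM in Fgf4 embryos, with a log2 change of -0.45 against the same controls (adjusted p = 0.302). The control libraries lie above those of Fgf4 as well, as for 3.25% of all genes, and the fold change stayed within the limits. *mrps22*, of the small subunit of the mitochondrial ribosome, was 28.7, 29.1 and 32.0 TPM in Cic knockdown embryos, against 45.8, 43.0 and 44.9 TPM in controls, with a log2 change of -0.57 (adjusted p = 0.111). In Fgf4 embryos *mrps22* was 37.3, 35.1 and 33.7 TPM, also below every one of the same controls, with a log2 change of -0.33 (adjusted p = 0.357). Between replicate 3 and replicates 1 and 2 the log2 difference was 0.07 for *etfa* (adjusted p = 0.624) and 0.020 for *mrps22* (adjusted p = 0.897).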
